A study of Mus musculus with 3 samples.

Results

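The genes described here are 33 genes of cholesterol and fatty acid synthesis, taken by symbol from the 23337 genes counted in mouse heart tubes. The list holds 19 genes of the sterol arm, 5 regulators of the SREBP transcription factors and 9 genes of the fatty acid arm, and all 33 had a row in the count files and passed the filter on low counts. The libraries came from whole heart tubes at embryonic day 9.5, with 2 Sox7-null libraries (Sox7 -/-, tubes 1 and 2) and 1 wild-type library (tube 3). The labels name no other allele, strain, Cre, transgene or agent, and do not say whether a tube held 1 embryo or a pool. Reads assigned to genes numbered between 13139823 and 13789388 per library. Sox7 itself had 2 and 7 reads in the nulls, against 222. Markers of heart tube myocardium were abundant in all 3 libraries, with a summed level of 8 genes of 15425 and 14272 CPM (read counts scaled by library size and TMM factor) in nulls 1 and 2 and 11055 CPM in the wild type. The 6 retinal markers, examined because the extraction text names retinal organoids, summed to between 0.435 and 1.13 CPM. With 1 wild-type library, the spread behind the p-values comes from the 2 nulls and may be technical only.

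Cells build cholesterol from acetyl-CoA through mevalonate, isoprenoids, squalene and lanosterol, and build fatty acids from the same precursor through malonyl-CoA and palmitate. Both arms are switched on by the SREBP factors, which are held in the endoplasmic reticulum by Insig proteins when sterols are plentiful and are carried by Scap to the Golgi for cleavage when sterols run low. In the embryo the sterol arm supplies growing membranes and the modification of hedgehog ligands, and several of its later steps use molecular oxygen.

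In the Sox7-null heart tubes 6 of the 33 genes passed the test, 5 lower and 1 higher. The sterol enzyme genes Acat2, Idi1 and Nsdhl, the elongase gene Elovl6 and the desaturase gene Scd1 were lower, by between 1.55-fold and 2.38-fold. The desaturase gene Scd2, which had the most reads of the list, was 1.62-fold higher. None of the 5 SREBP regulators passed. Across all 13334 genes tested, 21.6% were called by edgeR's quasi-likelihood test at an adjusted p under 0.05, with 11.3% higher and 10.2% lower, against 18.2%, 3.0% and 15.2% of the 33 genes. The share called was thus near the background. The median log2 fold change of the 33 genes was -0.26, beside 0.01 over all genes tested. At an unadjusted p under 0.05 there were 15 of the 33, against 4712 of all 13334.

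The count of called genes depended on the method, with 7 of 33 called under median-of-ratios factors (22.5% of all genes) and 6 under upper-quartile factors (22.7%). DESeq2 called 1 of 33 higher (6.91% of all genes) and 3 lower (5.28%), and limma-voom called 1 higher (9.39%) and 4 lower (9.73%). With no filter on low counts edgeR called 0 of the 33 and 0 of all 17242 genes, where 11 of the 33 and 4113 of all genes had an unadjusted p under 0.05. A correction that removed a smooth trend on transcript length and GC content in every library was made in 2 versions. With the longest principal transcript of a gene it called 0 of 33 higher (8.59% of all genes) and 6 lower (6.36%). With the median over a gene's transcripts it also called 6 of 33, all lower (22.7% of all genes in either direction and 10.2% lower). Both versions called Acat2, Fasn, Scd1 and Elovl6 lower, while Idi1 and Scap were called in the first version alone and Mvk and Acly in the second alone. Values below called trend-corrected are those of the principal transcript, a definition adopted after the median version had been seen.

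**Figure D1:**
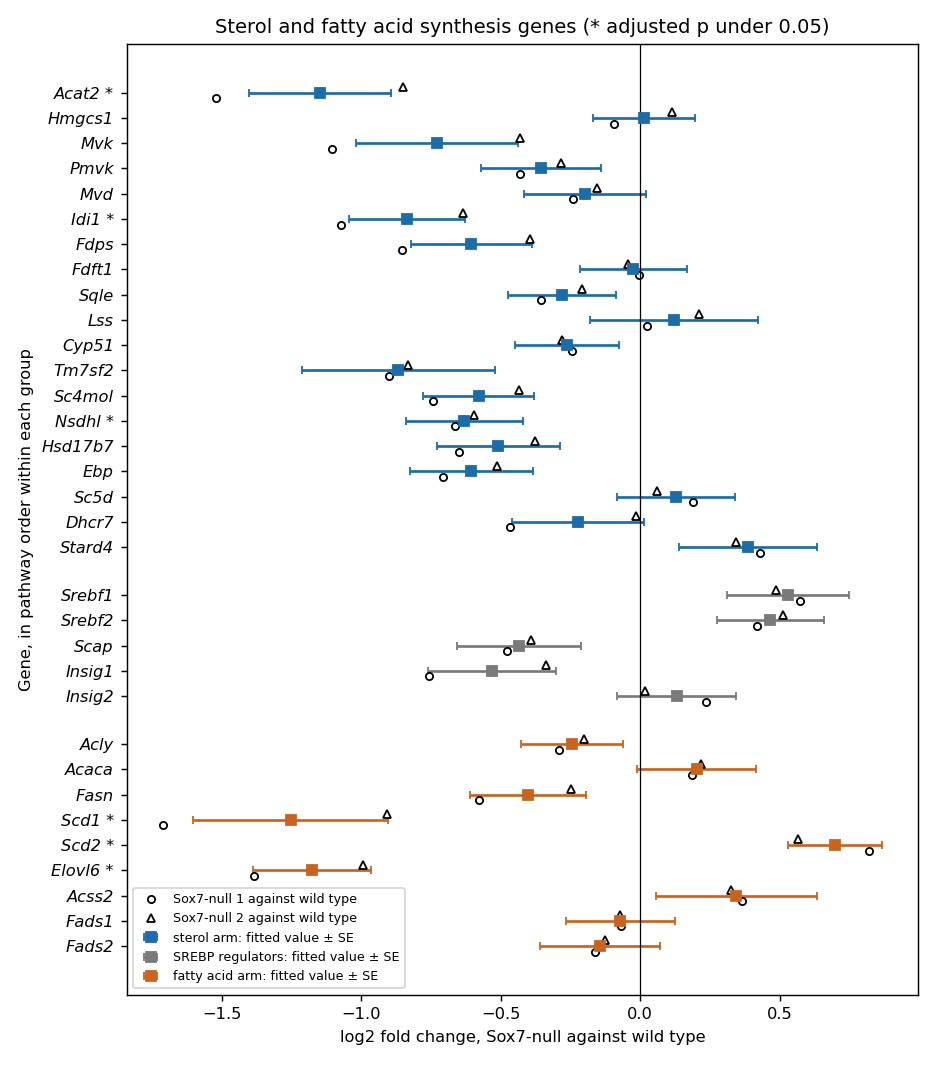
Log2 fold change of each gene in Sox7-null against wild-type heart tubes, in pathway order. Squares are the fitted values with their standard errors, circles and triangles set Sox7-null 1 and Sox7-null 2 alone against the single wild-type library, and asterisks mark the 6 genes past an adjusted p of 0.05. Most of the sterol arm lies left of 0, from Acat2 at -1.15 to Stard4 at 0.39, and Scd1 (-1.25) and Scd2 (0.70) lie at opposite ends.

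Promoter letters of the genes were examined in windows from 250 bases before to 50 bases after each RefSeq start (GRCm38.p6), which were found for 26 of the 33 genes. Since the processing notes name human builds for mouse symbols, these windows describe the genes and not the reads. The searches covered both strands. The pentamer CCAAT, bound by NF-Y, a usual partner of SREBP, was in a window of 14 of 15 sterol genes, 4 of 5 regulators and 3 of 6 fatty acid genes, against 42.9% of the 10394 tested genes with a window and 37.4% of all 32851 windows. The hexamer GGGCGG, bound by Sp1, was in 14 of 15, 5 of 5 and 3 of 6, against 69.4% of tested genes and 35.7% of all windows. The form TCACNCCAC of the sterol regulatory element was in 1 gene, Hmgcs1, against 1.40% of tested genes and 1.24% of all windows. A longer form of that element was in none of the 26, against 0.0577% of tested genes. The E-box CACGTG was in 5 of the 26 genes (11.9% of tested genes and 7.15% of all windows) and ACGTG, which lies within it and is the core of the hypoxia response element, was in 7 (29.4% and 19.6%). A match is a run of letters and not a bound site. The windows below are those of Acat2, Idi1, Nsdhl and Elovl6, which were called lower, and of Hmgcs1, which holds the sterol element letters. Acat2 is the 1 sterol gene of the 15 without CCAAT, and its window has none of the marked letters. Capitals mark TCACNCCAC, CCAAT and ACGTG on either strand, so that CCAAT on the opposite strand reads ATTGG.
Hmgcs1, chr13:119690101-119690400, plus strand: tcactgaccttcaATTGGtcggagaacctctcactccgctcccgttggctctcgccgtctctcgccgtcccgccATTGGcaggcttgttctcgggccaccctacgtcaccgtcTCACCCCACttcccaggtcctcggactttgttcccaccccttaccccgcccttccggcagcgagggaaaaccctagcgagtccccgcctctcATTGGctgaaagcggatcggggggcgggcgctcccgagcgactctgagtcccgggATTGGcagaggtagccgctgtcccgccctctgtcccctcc
Acat2, chr17:12960676-12960975, minus strand: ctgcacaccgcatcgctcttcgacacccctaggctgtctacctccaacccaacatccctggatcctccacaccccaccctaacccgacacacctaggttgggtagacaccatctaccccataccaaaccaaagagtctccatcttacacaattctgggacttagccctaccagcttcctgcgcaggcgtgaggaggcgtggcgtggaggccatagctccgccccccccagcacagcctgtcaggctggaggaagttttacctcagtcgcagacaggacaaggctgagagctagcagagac
Idi1, chr13:8885356-8885655, plus strand: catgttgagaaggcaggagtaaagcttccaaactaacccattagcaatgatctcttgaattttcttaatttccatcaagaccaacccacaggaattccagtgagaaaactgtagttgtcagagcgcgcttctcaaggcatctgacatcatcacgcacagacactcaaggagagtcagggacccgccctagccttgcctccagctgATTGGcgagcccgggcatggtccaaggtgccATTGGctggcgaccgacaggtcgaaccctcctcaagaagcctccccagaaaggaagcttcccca
Nsdhl, chrX:72918271-72918570, plus strand: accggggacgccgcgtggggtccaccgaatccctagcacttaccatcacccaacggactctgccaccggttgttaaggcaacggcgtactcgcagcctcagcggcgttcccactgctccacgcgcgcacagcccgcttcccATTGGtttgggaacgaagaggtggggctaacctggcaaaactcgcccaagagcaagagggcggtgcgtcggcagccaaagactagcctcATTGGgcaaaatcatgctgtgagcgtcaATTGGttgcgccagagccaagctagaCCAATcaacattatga
Elovl6, chr3:129532136-129532435, plus strand: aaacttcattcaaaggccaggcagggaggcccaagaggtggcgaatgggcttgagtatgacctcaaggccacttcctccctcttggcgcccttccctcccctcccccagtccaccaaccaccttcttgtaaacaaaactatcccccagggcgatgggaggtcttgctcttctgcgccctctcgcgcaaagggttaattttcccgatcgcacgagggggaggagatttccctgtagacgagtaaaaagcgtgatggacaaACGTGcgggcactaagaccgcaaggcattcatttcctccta

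In the sterol arm 3 of 19 genes fell and 0 rose, which is 15.8% lower against 10.2% of all genes tested. Both null libraries lay below the wild type for 15 of the 19 (78.9%), above it for 3 and on either side of it for 1, where 43% of all genes tested had both below and 43.1% both above. The arm had a median log2 fold change of -0.36, with -0.47 for null 1 alone and -0.28 for null 2 alone. Summed over the 19 genes, the nulls stood at 783 and 899 CPM and the wild type at 1076 CPM. Sox7-null 1 had the lower level of the null libraries for 15 of the 19 genes. How often this held over all genes tested was not counted, so it cannot be read as a trait of the arm.

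The early steps run from acetyl-CoA to farnesyl diphosphate. Acat2, whose product joins acetyl-CoA units to start the pathway, stood at 16.8 and 26.7 CPM in the nulls against 48.2 CPM. Both null values were well under the wild type, and they differed from each other as well. Acat2 fell by 1.15 ± 0.25 on the log2 scale (standard error, as throughout; edgeR adjusted p = 0.00793). A close copy, Acat3, shares 97.7% of 1477 aligned bases with it but had only 8, 3 and 1 reads. A stretch of 445 bases of Acat2 matches Tcp1 at 98.7%. Hmgcs1, which makes the precursor of mevalonate, had 154 and 178 CPM against 164 CPM. The wild type thus lay between the null libraries, and its log2 fold change of 0.01 had a 95% interval from -0.38 to 0.41. Mvk, the mevalonate kinase gene, had 119 and 194 reads against 252, which missed the threshold (-0.73 ± 0.29, edgeR adjusted p = 0.0923). Pmvk and Mvd, which encode the next kinase and the decarboxylase, stood at -0.36 and -0.20 on the log2 scale, and neither passed.

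Idi1 encodes the isomerase that makes the reactive isoprene unit. The nulls held 65.4 and 88.5 CPM of it, against 137 CPM. Idi1 fell by 0.84 ± 0.21 on the log2 scale (edgeR adjusted p = 0.0137). Trend-corrected it stood at -0.62 (edgeR adjusted p = 0.0465), and with the median transcript at -0.28 (edgeR adjusted p = 0.309), which was no call. Fdps, the farnesyl diphosphate synthase gene, had 51.8 and 71.1 CPM against 93.6 CPM and did not pass (-0.61 ± 0.22, edgeR adjusted p = 0.0637). Of these 7 early genes 2 fell and 0 rose, where 10.2% of all genes tested were lower and 11.3% higher. Both null libraries lay below the wild type for 6 of the 7, against 43% of all genes tested. Idi1 and Fdps have pseudogenes that match long stretches of their transcripts at 95% identity or more, so both counts are uncertain. Fdps also shares 1124 exon bases with Gm43738, a protein-coding gene on the same strand.

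The later steps begin with squalene. Fdft1, the squalene synthase gene, had 77.4 and 75.4 CPM against 77.7 CPM, a log2 difference of -0.02 with a 95% interval from -0.44 to 0.39. Its exons share 774 bases with Ctsb on the opposite strand, and a pseudogene matches 97.4% of 1249 aligned bases. Sqle, whose product adds the first oxygen to squalene, had 65.0 and 71.9 CPM against 83.2 CPM (-0.28 ± 0.19, edgeR adjusted p = 0.326). Lss, which closes the rings to lanosterol, had 8.75 and 9.94 CPM against 8.60 CPM (0.12 ± 0.30). None of these 3 genes passed the test, and for Fdft1 the 3 libraries were nearly level. The lanosterol demethylase gene Cyp51 stood at -0.26 ± 0.19 and did not pass either.

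Demethylation of the sterol ring then needs the products of Sc4mol (now named Msmo1), Nsdhl and Hsd17b7. Nsdhl, on the X chromosome, had 21.7 and 22.8 CPM in the nulls against 34.5 CPM. The null libraries were close to each other and both below the wild type. Nsdhl fell by 0.63 ± 0.21 on the log2 scale (edgeR adjusted p = 0.0493), just inside the threshold. It did not pass with DESeq2 (adjusted p = 0.217), with limma-voom (adjusted p = 0.0561), at a minimum mean of 5 CPM (edgeR adjusted p = 0.0554) or trend-corrected (-0.37, edgeR adjusted p = 0.221). Sc4mol lay just outside, at 61.0 and 75.5 CPM against 102 CPM (-0.58 ± 0.20, edgeR adjusted p = 0.0559), and stood at -0.28 trend-corrected or -0.096 with the median transcript. With median-of-ratios factors it was called lower (edgeR adjusted p = 0.0488). Hsd17b7 had 20.5 and 24.8 CPM against 32.3 CPM (-0.51 ± 0.22, edgeR adjusted p = 0.118).

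Among the last steps, the isomerase gene Ebp had 243 and 284 reads against 390, also outside the threshold (-0.61 ± 0.22, edgeR adjusted p = 0.0674). The reductase gene Tm7sf2 had the fewest reads of the arm, 56 and 60 against 103 (-0.87 ± 0.35, edgeR adjusted p = 0.0918), and part of its exons is shared with Vps51 on the same strand. Sc5d, the sterol desaturase gene, stood at 37.0 and 33.8 CPM against 32.4 CPM (0.13 ± 0.21). Dhcr7, which makes cholesterol in the final reduction, had 22.8 and 31.2 CPM against 31.5 CPM (-0.22 ± 0.24). Of the 11 genes from squalene to cholesterol 1 fell and 0 rose, where 10.2% of all genes tested were lower and 11.3% higher. Both null libraries lay below the wild type for 9 of the 11, against 43% of all genes tested. The 9 include Fdft1, which was nearly level (-0.02). Stard4, which carries sterols between membranes, had the highest log2 fold change of the arm, 0.39 ± 0.25, with 17.9 and 16.8 CPM against 13.3 CPM, and did not pass (edgeR adjusted p = 0.290).

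**Figure D2:**
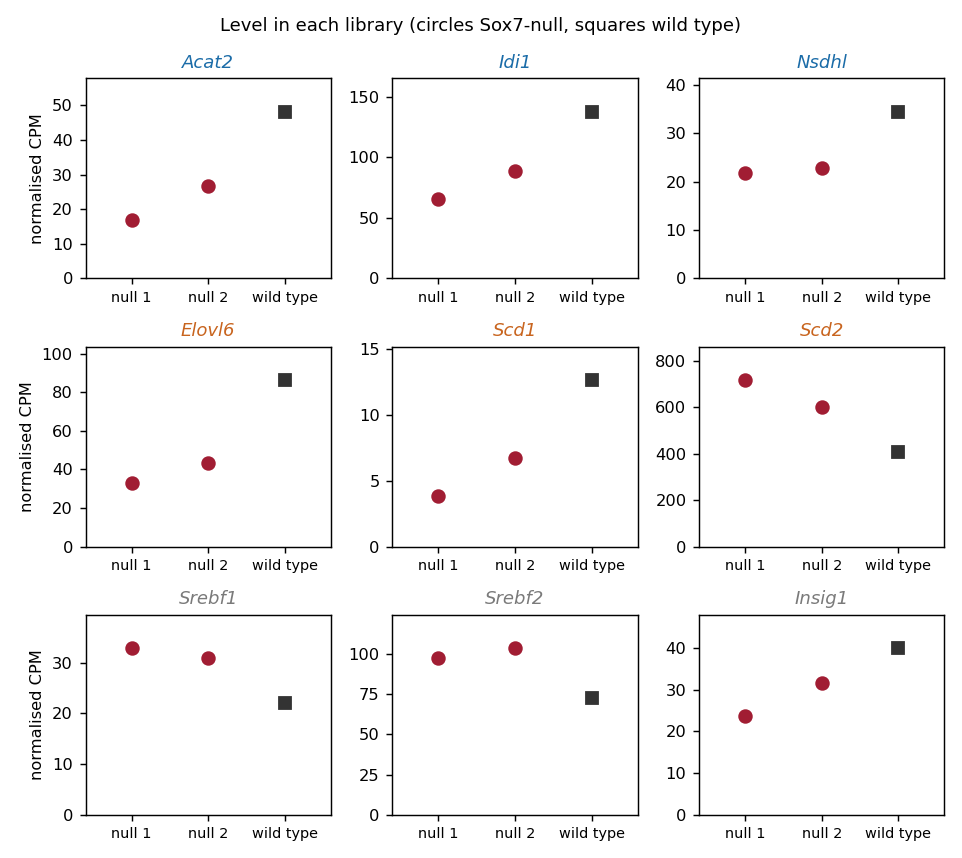
Normalised CPM (vertical axis, from 0) of 9 genes in each of the 3 libraries, with circles for Sox7-null and squares for the wild type. Acat2, Idi1, Nsdhl, Elovl6 and Scd1 are lower in both null libraries, Scd2 is higher in both (718 and 601 against 406 CPM). Srebf1 and Srebf2 lie above the wild type in both nulls and Insig1 below it, and these 3 did not pass the test.

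Of the 5 SREBP regulators 0 rose and 0 fell with edgeR. Srebf1, Srebf2 and Insig1 had an unadjusted p under 0.05, as did 4712 of the 13334 genes tested. Srebf1, which favours the fatty acid arm, had 32.9 and 31.0 CPM against 22.1 CPM (0.53 ± 0.22, edgeR adjusted p = 0.102). Srebf2, which favours the sterol arm, had 97.1 and 103 CPM against 72.5 CPM (0.47 ± 0.19, edgeR adjusted p = 0.102). Both lay above the wild type in both null libraries without passing the test. Their transcripts have a GC content of 58.4% and 57.9%, where the median of tested genes is 50.4%. Trend-corrected, Srebf1 stood at 0.11 and Srebf2 at -0.017, and with the median transcript at 0.088 and 0.23.

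Insig1, itself a target of SREBP, had 23.6 and 31.6 CPM against 39.9 CPM (-0.53 ± 0.23, edgeR adjusted p = 0.115). Insig2 had 41.4 and 35.6 CPM against 35.1 CPM (0.13 ± 0.21, 95% interval -0.33 to 0.59). Scap, the escort of the SREBPs, had 18.2 and 19.3 CPM against 25.3 CPM (-0.44 ± 0.22, edgeR adjusted p = 0.182). Trend-corrected, Scap was the 1 regulator called, lower at -0.86 (edgeR adjusted p = 0.0157), and with the median transcript it was not called (-0.32, edgeR adjusted p = 0.340). A gene of unsettled type overlaps 985 of its exon bases on the opposite strand.

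The fatty acid arm held the largest change in each direction of the whole list. Of its 9 genes 2 fell (22.2%, against 10.2% of all genes tested) and 1 rose (11.1%, against 11.3%). Both null libraries lay below the wild type for 6 of 9 and above it for 3 of 9, where 43% of all genes tested had both below and 43.1% both above. The median log2 fold change was -0.14, or -0.35 trend-corrected and -0.14 with the median transcript. Summed over the arm, the nulls stood at 1043 and 960 CPM against 842 CPM, and without Scd2 it was 325 and 359 CPM against 436 CPM. The sum of the arm thus followed a single gene.

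The genes that supply and extend the chain come first. Acly, which makes cytosolic acetyl-CoA from citrate, had 109 and 115 CPM against 133 CPM (-0.25 ± 0.18, edgeR adjusted p = 0.365), and only the median-transcript version called it lower (-0.54, edgeR adjusted p = 0.0268). Acss2, which makes it from acetate, had 152 and 151 reads against 116 (0.35 ± 0.29). Acaca, the acetyl-CoA carboxylase gene, had 30.6 and 31.3 CPM against 26.9 CPM (0.20 ± 0.21) and has a pseudogene that matches 99.2% of 6118 aligned bases. None of the 3 passed without that correction, and for each the nulls lay close together. Fasn, the synthase that makes palmitate, had 50.7 and 63.6 CPM against 75.6 CPM and did not pass (-0.40 ± 0.21, edgeR adjusted p = 0.185). It is the longest transcript of the list, and trend-corrected it was called lower, at -1.05 (edgeR adjusted p = 0.00561).

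Elovl6, which lengthens palmitate to stearate, had 445 and 597 reads in the nulls against 1145. Each null library was at about the middle of the wild-type level or under it. Elovl6 fell by 1.18 ± 0.21 on the log2 scale (edgeR adjusted p = 0.00268), the smallest adjusted p of the 33 genes. It also passed with DESeq2 (adjusted p = 0.00110), with limma-voom (adjusted p = 0.00418) and trend-corrected (-1.27, edgeR adjusted p = 0.00165). A pseudogene matches 97.4% of 805 bases of its transcript.

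The stearoyl-CoA desaturases add the first double bond, and the mouse has several. Scd1, the main form of liver and fat, had 52 and 93 reads in the nulls against 168, or 3.86, 6.75 and 12.7 CPM. Scd1 fell by 1.25 ± 0.35 on the log2 scale (edgeR adjusted p = 0.0238), and it did not pass with DESeq2 (adjusted p = 0.135). Scd2, the main form of the embryo and brain, had 9682 and 8284 reads against 5386, or 718, 601 and 406 CPM. Scd2 rose by 0.70 ± 0.17 on the log2 scale (edgeR adjusted p = 0.0120), and it also passed with DESeq2 (adjusted p = 0.0146). Trend-corrected, Scd2 stood at 0.46 and was no longer called (edgeR adjusted p = 0.108). The transcripts of these neighbours share 95.5% of 623 aligned bases, so some of their reads may have been left out or misplaced.

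Per kilobase of transcript, Scd2 stood at 132 and 110 CPM in the nulls against 74.5 CPM, the highest level of the 33 genes in each library, and Scd1 at 0.798, 1.40 and 2.62 CPM. The ratio of Scd2 to Scd1 on this scale was 165 and 78.9 in the nulls against 28.4. The same scale put Fdps next in the wild type, at 67.7 CPM per kilobase, and Lss lowest, at 1.84. Srebf2 exceeded Srebf1 by 2.50-fold and 2.83-fold in the nulls and by 2.78-fold in wild type, so their order was the same in all 3.

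The genes for polyunsaturated chains did not pass. Fads1 had 62.9 and 62.8 CPM against 66.1 CPM (-0.07 ± 0.19, 95% interval -0.49 to 0.35). Fads2, its neighbour, had 23.7 and 24.3 CPM against 26.5 CPM (-0.14 ± 0.21, 95% interval -0.61 to 0.32). Both intervals include 0, and a change of any size inside them remains compatible with these counts.

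**Figure D3:**
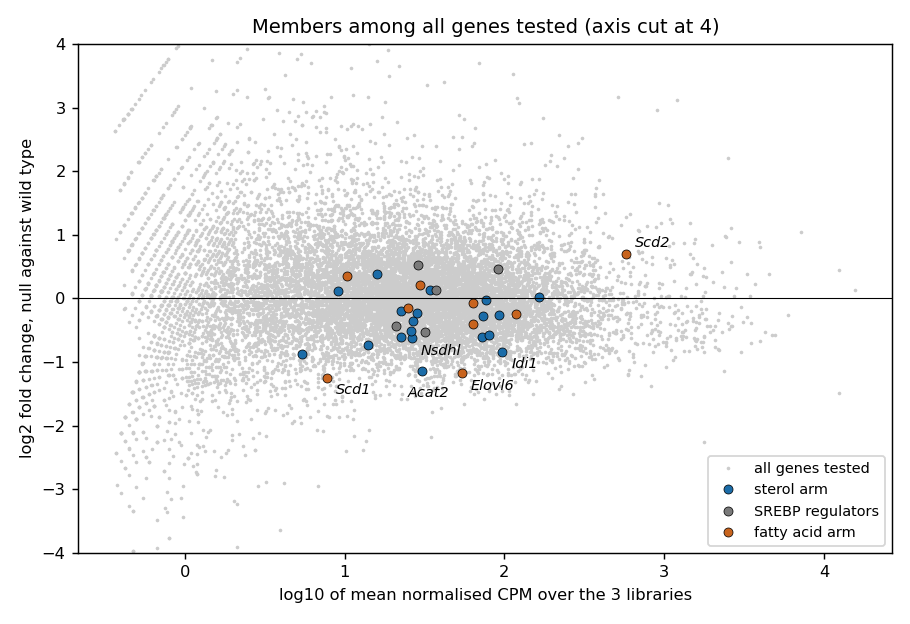
Log2 fold change (vertical axis) against the log10 of the mean normalised CPM (horizontal axis) for the 13334 genes tested, in grey, and the 33 genes, in colour by group, with the 6 called genes named. The vertical axis ends at 4 in both directions, which leaves 79 genes outside it. The 33 genes lie within the cloud of all genes, most of them under 0.

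Other genes of lipid metabolism were counted from lists, beside 11.3% higher and 10.2% lower over all genes tested. Of 14 further sterol and isoprenoid genes tested, 1 rose (7.1%) and 2 fell (14.3%). The mitochondrial thiolase gene Acat1 rose (0.90 ± 0.25), while Coq2 of coenzyme Q synthesis (-0.68 ± 0.20) and the prenyltransferase subunit gene Fnta (-0.56 ± 0.19) fell. Neither Coq2 nor Fnta passed with DESeq2 (adjusted p of 0.0766 and 0.113). Of 10 genes of SREBP cleavage and turnover 1 rose and 0 fell, namely Mbtps2, which encodes the site-2 protease (0.73 ± 0.22, edgeR adjusted p = 0.0338, DESeq2 adjusted p = 0.117). The gene of its partner protease, Mbtps1, had 0.55 ± 0.19 and did not pass (edgeR adjusted p = 0.0568), and neither did Erlin1 (-0.46 ± 0.23).

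Genes of sterol uptake, storage and transport counted 5 of 18 higher (27.8%) and 1 lower (5.6%), with a median of 0.48. Over all genes tested, 11.3% were higher and 10.2% lower. Trend-corrected, 2 of these 18 were higher and 1 lower, where 8.59% and 6.36% of all genes were. Their median was then 0.19, or 0.35 with the median transcript. Vldlr, a lipoprotein receptor gene that is also on the list of stress response genes, had 2852 and 1781 reads against 254 and rose (3.15 ± 0.30). Soat1, which esterifies cholesterol for storage, rose by 1.00 ± 0.20. Among 19 further genes of fatty acid and glycerolipid synthesis 4 rose (21.1%) and 0 fell. The triglyceride synthesis genes Dgat2 (1.18 ± 0.23) and Gpam (1.32 ± 0.35) and the desaturase relative Fads3 (1.17 ± 0.28) rose, though Gpam did not pass with DESeq2 (adjusted p = 0.105). Of 10 lipid droplet and fatty acid handling genes 2 rose (20.0%) and 2 fell (20.0%). The fatty acid transporter gene Cd36 (1.55 ± 0.23) and the lipase inhibitor gene Hilpda (1.26 ± 0.23) rose, and the lipoprotein lipase gene Lpl fell (-0.65 ± 0.18).

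Several other groups of genes moved with the same contrast, in which 11.3% of all genes tested were higher and 10.2% lower. The 10 markers of liver, foregut and yolk sac endoderm, tissues that make much lipid, summed to 2.74 and 2.39 CPM in the nulls against 55.0 CPM. Of these 10, 8 were lower, with Alb at 0 in both null libraries. DESeq2 called 3 of the 10 lower and gave some, among them Alb, no adjusted p. At a minimum mean of 5 CPM only 2 were tested, and both were lower. Of 5 adipocyte markers, Adipoq, Plin1, Cidec and Lep had 0 reads in all 3 libraries, and Fabp4 had 6 and 4 reads in the nulls against 12 (-1.28 ± 0.91, edgeR adjusted p = 0.343). Of the 8 myocardial markers 4 rose, namely Myh7 (2.20 ± 0.25), Actn2 (1.12 ± 0.17), Tnnt2 (0.88 ± 0.14) and Myh6 (0.64 ± 0.14), and 0 fell. Nkx2-5, Tbx5 and Ttn did not pass, and neither did Myl7, which lay lower (-0.26 ± 0.12). Trend-corrected 3 of the 8 were called higher, and with the median transcript 5. Of 7 markers of endothelium and endocardium, which summed to 414 and 387 CPM against 346 CPM, Pecam1 (1.07 ± 0.24) and Tie1 (0.83 ± 0.23) rose and Tek fell (-0.91 ± 0.23). Tie1 passed with limma-voom (adjusted p = 0.0316) but not with DESeq2 (adjusted p = 0.0793) or trend-corrected (0.43, edgeR adjusted p = 0.186). Erythroid markers summed to 4511 CPM for null 1 against 14331 for null 2 and 13892 in wild type, and none of 6 passed. Macrophage markers summed to 33.3, 15.9 and 16.2 CPM, with 2 of 4 tested higher and 1 lower. DESeq2 called 1 of these 4 higher and 0 lower, and limma-voom 0 higher and 1 lower. Epicardial markers summed to 1016, 816 and 241 CPM, mostly through Krt19 (792, 669 and 81.0 CPM). Of these 5 markers Krt19 and Wt1 (0.97 ± 0.24) rose, while Tbx18 (-0.16 ± 0.22), Tcf21 (-0.43 ± 0.26) and Upk3b (0.19 ± 0.36) did not pass. Upk3b lay above the wild type in null 1 and below it in null 2. All 15 glycolysis and low-oxygen genes tested and all 12 genes of the integrated stress response rose, with medians of 1.64 and 2.52. Both lists were chosen with earlier results of these data known. DESeq2 called 14 of the 15 and all 12, as did edgeR trend-corrected. By smallest p, the glycolysis and low-oxygen genes were led by Slc2a3 (2.97 ± 0.22), Ddit4 (3.07 ± 0.27) and Bnip3 (17124 and 15007 reads against 5529). The stress response genes were led by Chac1 (5.90 ± 0.45), Stc2 (4.93 ± 0.42) and Trib3 (4.10 ± 0.36). Reads that did not align uniquely made up 10.4%, 11.6% and 22.3% of the libraries. The part of each of these in the values of the 33 genes was not tested, and in whole tubes fewer cells of a type cannot be told apart from less RNA per cell.

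**Figure D4:**
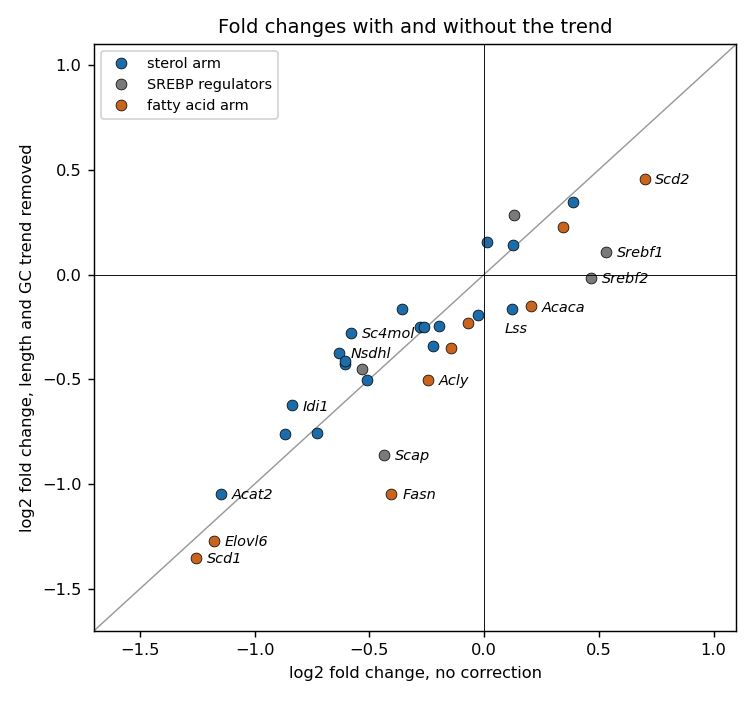
Log2 fold change of the 33 genes corrected for the length and GC trend (vertical axis) against the value with no correction (horizontal axis), with a line of equality. Acat2, Elovl6 and Scd1 stay near the line, Fasn (-0.40 to -1.05) and Scap (-0.44 to -0.86) drop below it, and Srebf2 moves from 0.47 to -0.017.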

How the data were processed

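Heart tube RNA was measured in 3 libraries made with a stranded total RNA kit after Trizol extraction, per the labels' protocols. The authors deposited raw read counts by gene symbol, with a file for each library. CASAVA, TopHat2, HTSeq and DESeq2 1.10.1 are named in the submitters' processing notes, with human builds (hg19, GRCh37) beside mouse symbols. Annotation and strand setting: not given in the sources used here. For 12 of the 33 genes another gene overlaps an exon in GENCODE M21, and 8 have a stretch of at least 100 bases at 95% identity elsewhere among the transcripts, which makes their counts uncertain.

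Library sizes exclude the 5 summary lines. No feature was assigned to 8.10%, 8.52% and 11.7% of reads (nulls 1 and 2, then wild type), 2.27%, 2.29% and 1.97% were ambiguous and 10.4%, 11.6% and 22.3% did not align uniquely. Counts were tested with edgeR 4.0.16 in R 4.3.3 (TMM, filterByExpr with a minimum count of 10, glmQLFit and glmQLFTest), Benjamini-Hochberg adjusted over 13334 genes. There was 1 residual degree of freedom, with 11.8 prior degrees of freedom. A standard error is the fold change divided by the root of F. DESeq2 1.42.0, limma-voom (limma 3.58.1), other scalings, filters and left-out libraries were alternatives. In a further one, a spline trend (5 degrees of freedom each) on the length and GC content of the longest principal GENCODE transcript was removed from each library, for 13206 genes. The median over coding transcripts was run first, and the principal transcript replaced it after the values of the 33 genes under it had been seen. The scripts were tested on simulated data. The libraries differed by more than sampling noise (chi-square per degree of freedom of 19.6 or more).

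All 33 genes are named, and up to 3 genes of each related list, by smallest p, as the rule; 1 gene that this rule takes is not reported by name here. The members and lists were chosen with earlier results of these data known.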

Additional observations from a re-analysis of the deposited data

How the results depend on the processing

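All 33 genes kept the direction of their fold change under the alternatives run, except Hmgcs1 without null 2 (-0.094) and, with the length and GC trend of the principal transcript removed, Lss (-0.16), Srebf2 (-0.017, also the median of the regulators) and Acaca (-0.15), which stood at 0.16, 0.23 and 0.50 with the median transcript. Acat2 and Elovl6 were called under every tested alternative but the one with no filter on low counts, where prior degrees of freedom fell to 3.23 and edgeR called 0 genes of 17242, and hence 0 in each arm and in each related list (4113 of all genes and 11 of the 33 had an unadjusted p under 0.05; the median-of-ratios, upper-quartile, limma-voom and DESeq2 runs, which kept the filter, called 7, 6, 5 and 4 of the 33). Over all genes, DESeq2 called 922 higher and 704 lower, against 1508 and 1366 with edgeR, and edgeR with the trend removed called 1135 and 840. With the trend removed the regulators had 1 lower, and the fatty acid arm had 0 higher and a median of -0.35. DESeq2 called 1 lower in the fatty acid arm. That transcript definition was chosen after seeing the data: the median length and GC over a gene's coding transcripts had been run first and was replaced once its values for the 33 genes were known. In that first version edgeR called 1642 higher and 1350 lower over all genes, the fatty acid arm had 0 higher and 4 lower, and Idi1 (-0.28) was not called. The cause of these changes was not tested.

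Leaving out Sox7-null 1 or Sox7-null 2 leaves 1 library against 1 and no test. The medians then ran from -0.47 to -0.28 in the sterol arm, 0.02 to 0.24 among the regulators and -0.16 to -0.13 in the fatty acid arm, and from -0.34 to -0.23 in the further sterol genes. Among the further sterol genes, those lower numbered 1 at a minimum mean of 5 CPM, with limma-voom and with the trend removed, and 0 with DESeq2 and the median transcript (median -0.077). Of the SREBP cleavage genes 2 were higher with upper-quartile factors and the median transcript, and 0 with DESeq2. Of the uptake genes, 3 were higher with DESeq2 and the median transcript and 2 with the trend removed (median 0.19), and 0 were lower with DESeq2 or at 5 CPM. DESeq2 called 2 of the further fatty acid genes higher. For lipid droplet genes 1 was lower with DESeq2 and with either trend removed, where the median was 0.18 with the principal transcript. No paired analysis was possible because the labels give the groups no shared replicate number.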
